A study of Mus musculus with 2 samples.

Results

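This account follows 10 axon guidance genes in the genital tubercle, the embryonic bud from which penis or clitoris develops, of wild-type C57BL/6 mice at embryonic day 14.5. The genes were chosen by symbol, with earlier results of these data known, and are 10 of 31053 genes in the count tables. They are the cues Slit2, Slit3, Sema3a, Sema3c and Ntn1 and the receptors Robo1, Robo2, Nrp1, Nrp2 and Plxna2. Single cells were counted in 1 male and 1 female library, each made from 3 embryos pooled by sex, so embryos cannot be told apart and no value has a replicate. A barcode was kept as a cell from 2000 UMIs (unique molecular identifiers, 1 per captured RNA molecule) and 500 genes upward, with a mitochondrial share of up to 10%, and likely doublets were then removed. This left 14872 male and 15910 female cells. All 10 genes were counted in both libraries, each with at least 100 UMIs in the mesenchyme-like cells of each library.

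Slits are secreted proteins that bind Robo receptors on nearby cells and are best known for turning growing axons away. Class 3 semaphorins are secreted too, bind neuropilins, and signal through plexins that pair with the neuropilins, which also bind vascular endothelial growth factor in blood vessels. Netrins attract or repel depending on the receptors a cell carries, and all of these families also act outside the nervous system, in vessels, glands and connective tissue.

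The deposited tables summed to 130105692 UMIs in the male library and 144515562 in the female, and the kept cells had medians of 4892.5 and 4887 UMIs. Pairs of values give the male library first and the female library next. Levels are counts scaled to 1000000 UMIs of a group of cells (CPM), with exact Poisson intervals that cover counting error only. The library labels matched the sex-linked genes, with Xist at 0.0464 CPM in male cells and 1328 in female cells. The kept cells of the libraries shared 65 barcodes, 0.437% of the male and 0.409% of the female cells. Mesenchyme-like cells, the loose connective tissue that fills the tubercle, made up 95.3% of male and 96.7% of female cells. Epithelium-like cells numbered 142 and 87, endothelium-like cells (vessel lining) 134 and 80, glia-like and neural crest-like cells 32 and 51, and immune-like cells 68 and 45. Smooth muscle-like cells numbered 175 (male) and 0 (female), which allows a share of up to 0.0189%, and a group found in 1 library may reflect that library. Their mesenchyme markers were at 205% of the mesenchyme level. In 15574 male and 10485 female barcodes with 10 to 100 UMIs, taken as free RNA, mesenchyme markers were at 86.6% and 91.5% of their level in mesenchyme-like cells. The same markers were at 2.84% and 3.91% of that level in endothelium-like, 7.57% and 11.4% in epithelium-like, and 24.2% and 18.5% in glia-like cells.

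Between cell classes the Slits were genes of the mesenchyme. Slit2 was at 57.9 CPM in male and 66.9 in female mesenchyme-like cells, 16.3 and 13.0 in epithelium-like cells, and 4.43 and 3.76 in endothelium-like cells. Slit3 was at 67.4 and 65.9 CPM in mesenchyme-like cells and at most 3.68 CPM in epithelium-like and endothelium-like cells of either library. Glia-like cells held Slit3 at 149 (108 to 199.7) and 78.1 (56.8 to 105) CPM, above the mesenchyme level in the male library and within counting error of it in the female. They had Slit2 at 6.76 and 3.55 CPM, so the 2 Slits parted in glia-like cells.

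Robo1, a Slit receptor, was present in mesenchyme, vessel and epithelium alike. It was at 89.1 and 99.1 CPM in mesenchyme-like, 71.3 and 84.3 in endothelium-like, and 55.7 and 48.3 in epithelium-like cells. Robo2, its close relative, was at 188 CPM in male and 207 in female mesenchyme-like cells. In endothelium-like cells Robo2 was at 6.05 and 12.05 CPM, a log2 difference from mesenchyme of -4.96 (95% interval -5.80 to -4.24) and -4.10 (-4.91 to -3.41). Thus both Robo genes were present in mesenchyme, and in endothelium-like cells Robo1 differed from its mesenchyme level by -0.32 (-0.54 to -0.11) and -0.23 (-0.52 to 0.04), far less than Robo2.

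The semaphorins were divided between mesenchyme and other classes. Sema3a was at 70.6 and 75.5 CPM in mesenchyme-like and 47.8 and 43.6 in epithelium-like cells, with 4 and 2 UMIs in all endothelium-like cells. Sema3c was at 16.1 and 13.9 CPM in mesenchyme-like cells, 61.5 and 71.9 in epithelium-like cells, and 240.1 and 208 in glia-like cells. In endothelium-like cells Sema3c had no UMI in the male library, which allows up to 1.21 CPM, and 1 UMI in the female library. The log2 difference of epithelium-like over mesenchyme-like cells for Sema3c was 1.93 (1.64 to 2.20) and 2.37 (1.98 to 2.75).

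The 3 semaphorin receptors differed in the classes where they were high. Nrp1, which binds Sema3a and also vascular endothelial growth factor, was at 30.3 and 37.9 CPM in mesenchyme-like cells, against 236 and 286 in endothelium-like and 314 and 208 in glia-like cells. Immune-like cells held Nrp1 at 62.2 and 69.0 CPM, and epithelium-like cells at 3.15 and 7.07. After each cell was thinned to 2000 UMIs, 36.6% of male and 43.8% of female endothelium-like cells had an Nrp1 UMI, against 0.704% and 0% of epithelium-like cells, which have a median depth of 7516.5 and 6469 UMIs against 13568.5 and 11407. Unthinned, these shares were 87.3% and 87.5% against 3.52% and 2.30%. Nrp2 was at 42.8 and 35.7 CPM in mesenchyme-like, 110.03 and 97.1 in endothelium-like and 45.7 and 63.7 in epithelium-like cells. Plxna2, 1 of several plexins that signal with the neuropilins, was at 14.7 and 13.2 CPM in mesenchyme-like, 46.3 and 44.8 in epithelium-like and 29.4 and 42.9 in endothelium-like cells. Epithelium-like cells therefore held Nrp2 and Plxna2 with little Nrp1.

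Ntn1, the netrin cue, had 199 and 188 UMIs in all mesenchyme-like cells, 2.56 and 2.10 CPM. It had at most 2 UMIs in the endothelium-like or the epithelium-like cells of either library, too few to compare classes.

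**Figure D1:**
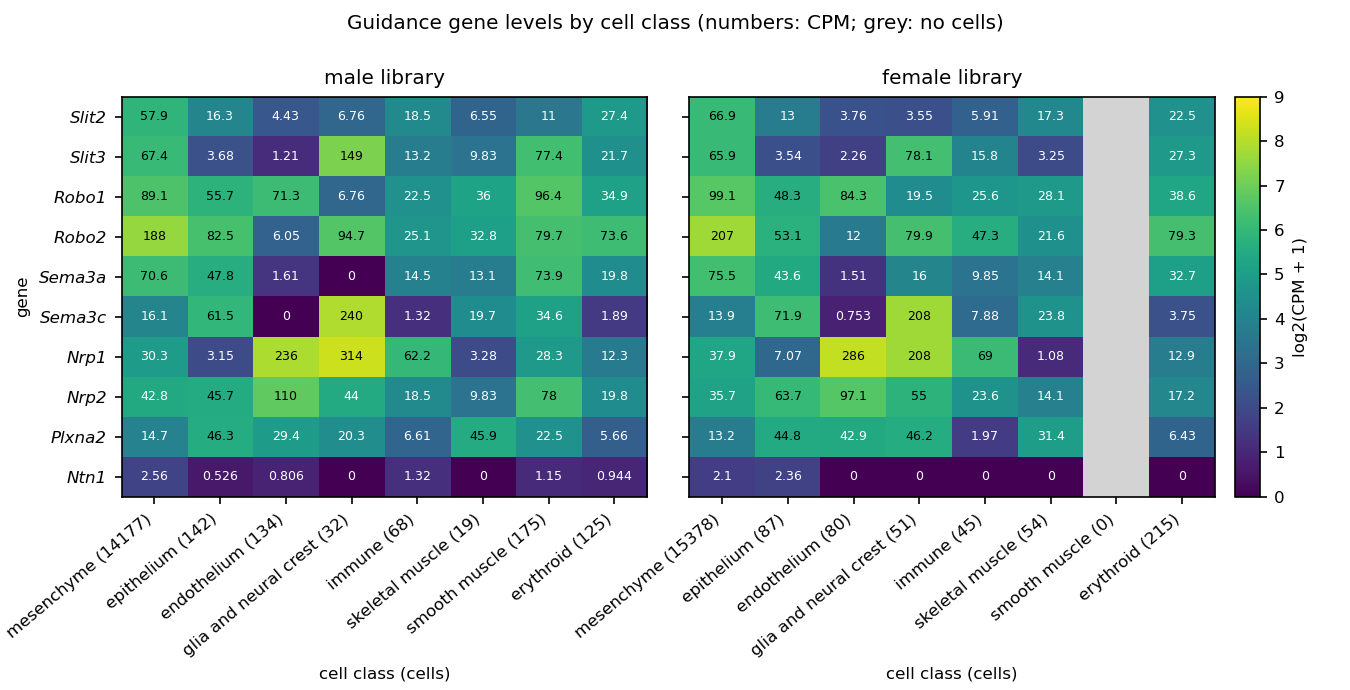
Levels of the 10 genes in each cell class, 1 panel per library, with genes as rows and classes as columns, coloured by log2(CPM + 1) and printed as CPM; the number of cells stands beside each class and grey marks a class with no cells. Nrp1 is bright in endothelium-like (236 and 286 CPM) and glia-like cells (314 and 208), Sema3c is bright in glia-like cells too (240.1 and 208), and Slit2, Slit3, Robo2 and Sema3a are low in endothelium-like cells.

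A 2-fold difference from mesenchyme-like cells in both libraries gives these patterns a count. Nrp1 and Nrp2 were higher in endothelium-like cells, where 9.88% of all genes counted were, and 6 members were lower (Slit2, Slit3, Robo2, Sema3a, Sema3c and Ntn1), as were 22.3% of genes. The Ntn1 call rests on 2 and 0 UMIs, and its intervals include equal levels. Sema3c and Plxna2 were higher in epithelium-like cells (background 4.95%), and Slit2, Slit3, Robo2 and Nrp1 were lower (13.6%). Taking off the free RNA, estimated from mesenchyme markers, left Robo2 at 77.1 and 35.4 CPM in epithelium-like cells, where 82.5 and 53.1 had been measured, and Sema3c at 64.6 and 78.4 CPM. In the male smooth muscle-like cells Nrp2 was at 78.0 CPM, Robo1 at 96.4, Slit3 at 77.4 and Sema3c at 34.6, and Robo2 at 79.7.

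Within the mesenchyme the cells were clustered without any guidance gene, and clusters were grouped into 8 domains by marker genes, most of which name each domain. Markers left out of the names were Sp9 (with Msx1 and Msx2), Dlx5 (with Dlx2 and Runx1), Sox5 (with Scx and Sox9) and Wt1 (with Aldh1a2 and Tcf21). The domains are those of Foxd1, Sall3 and Lbx2 (the Foxd1 domain), Msx1 and Msx2 (Msx), Dlx2 and Runx1 (Dlx2), Sim1, Tbx15 and Agtr2 (Sim1), Ogn, Foxf1 and Npnt (Ogn), Scx and Sox9 (Scx), Aldh1a2 and Tcf21 (Aldh1a2) and Rprm, Pcdh10 and Spock3 (Rprm). They held from 378 to 3941 cells a library, with median depths of 3760.5 to 5681.5 UMIs, and cells of 4 further clusters (15.1% of male and 18.1% of female mesenchyme-like cells) were left in no domain. At least 1 domain was 2-fold higher or lower than all other mesenchyme-like cells in both libraries for 9 of the 10 genes, against 20% of the 11999 genes counted. Because the members were chosen with earlier results of these data known, this excess is no test of guidance genes as a group. All 5 cues and 4 of 5 receptors were among the 9 genes, and Robo2 was the exception. A domain was higher for 8 genes (12.5% of all genes) and lower for 8 (17%), and each of the 10 had a single cluster past 2-fold (25.8%). Between the highest and the lowest domain, the median difference on the log2(CPM + 5) scale was 2.56 and 2.92 over the members, against 0.60 and 0.61 over all genes counted. These genes were not matched to the members in level, and adding 5 CPM narrows the range of a gene with a low level. Ntn1, at 2.56 and 2.10 CPM in mesenchyme-like cells, had a 5.96-fold and 4.63-fold range. Its range was at percentile 64.0 and 50.5 of the genes, and every other member was at 84.2 or above. How much of the contrast comes from level was not tested. The domains move with the clustering: in 6 other clusterings the count was 7 to 9. Below, all or every clustering means the main one and these 6. Domains were not compared in the clusterings made with a limit of 1000 UMIs per cell or with at most 5% mitochondrial UMIs. The Ogn domain was not found in 3 of the 6 (a limit of 4000 UMIs per cell, cell cycle genes kept, and another random seed), so each value of it below rests on the clusterings that hold it. Robo1 had no domain at 2-fold in 4 of the 6, Slit3 in 3 and Ntn1 in 1, while the other 6 genes had one in each. The highest domain was the same in both libraries in all 6 for Robo1, Robo2, Sema3c, Nrp1 and Plxna2, and changed in at least 1 for the other 5 genes.

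**Figure D2:**
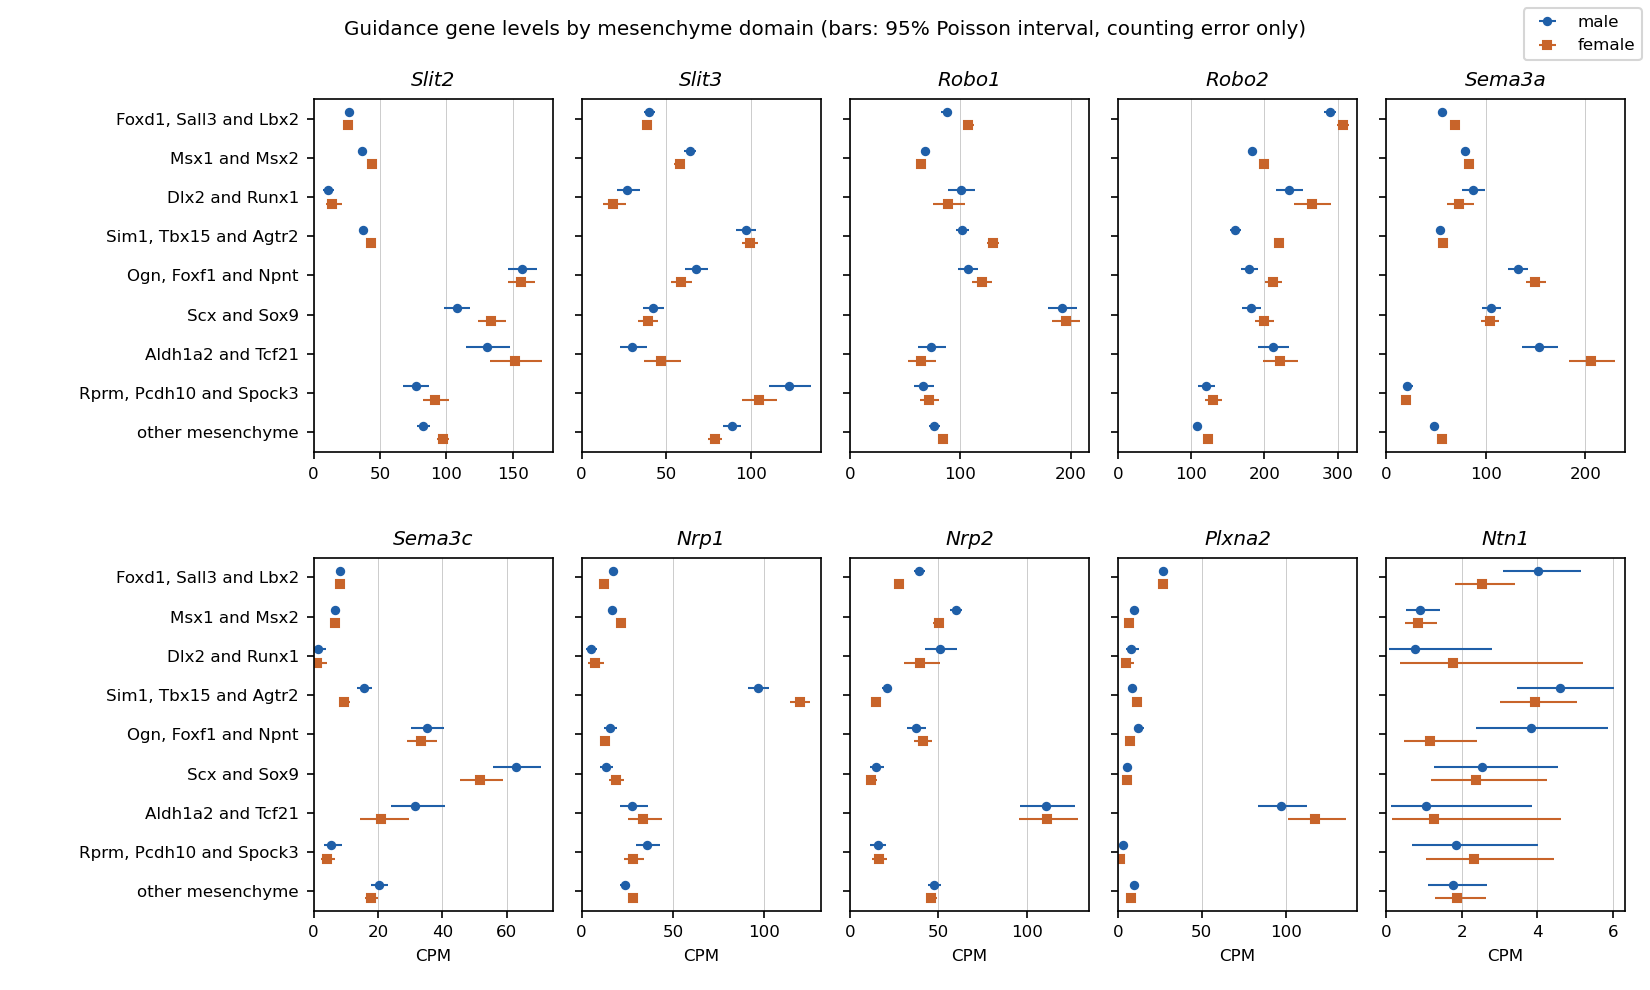
Level of each gene in CPM (horizontal axis, each panel with its own scale) in the 8 mesenchyme domains and in the remaining mesenchyme-like cells; circles are the male and squares the female library, with 95% Poisson intervals. Male and female points lie close together for most domains, and Nrp1 (96.6 and 119 CPM in the Sim1 domain) and Plxna2 (97.3 and 117 CPM in the Aldh1a2 domain) stand out in a single domain each.

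Slit2 (chromosome 5: 47983138-48307733, plus strand, mm10) had its highest level in the Ogn domain, at 157 CPM and 156. The Aldh1a2 domain was near it at 130.4 and 151 CPM, and the Scx domain had 108 and 134. In the Foxd1 domain Slit2 was at 26.3 and 25.8 CPM and in the Dlx2 domain at 10.8 and 14.3 CPM, from 28 and 24 UMIs. The order of the Ogn, Aldh1a2 and Scx domains depended on the clustering. Slit3 (chromosome 11: 35121224-35708507, plus strand) was laid out otherwise. It had 122 and 105 CPM in the Rprm domain, 96.8 and 99.3 in the Sim1 domain, and 27.1 and 18.4 in the Dlx2 domain, and 3 of the 6 other clusterings gave the Rprm domain as the highest in both libraries. The female values of the Rprm and Sim1 domains differ by less than their Poisson intervals. The Aldh1a2 domain, among the highest for Slit2, held Slit3 at 29.9 and 46.6 CPM, while both Slits were 2-fold lower in the Dlx2 domain.

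Robo1 (chromosome 16: 72308306-73046095, plus strand) was highest in the Scx domain, whose markers Scx and Sox9 are known from tendon and cartilage precursors. It was at 192 and 195 CPM there, a log2 difference from other mesenchyme of 1.21 (1.10 to 1.31) and 1.06 (0.96 to 1.16), and at 64.4 to 129 CPM in every other domain of either library. Over all clusterings its level in the Scx domain ranged from 147 to 197 CPM in male and 159 to 201 in female cells, and in 4 of the 6 others the difference was short of 2-fold. Robo2 (chromosome 16: 73891839-74411825, minus strand) was highest in the Foxd1 domain, at 290 and 307 CPM, and lowest in the Rprm domain, at 121 and 130.1 CPM. Its log2 difference in the Foxd1 domain was 0.83 (0.78 to 0.88) and 0.74 (0.69 to 0.78), short of 2-fold. Among single clusters, Robo2 was highest in a Foxd1 domain cluster led by Col8a1 and Lmcd1 in male cells (369 CPM, female 333) but in the Vax2os, Gsc and Irx1 cluster of the Sim1 domain in female cells (356 CPM, male 291). The cluster led by Mecom and Postn, which belongs to no domain, had the lowest level, at 65.5 and 69.8 CPM.

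Sema3a (chromosome 5: 13125414-13602565, plus strand) was highest in the Aldh1a2 domain, at 154 and 206 CPM, and next in the Ogn domain, at 132 and 149.9 CPM. It was lowest in the Rprm domain, at 21.5 and 20.2 CPM. In 2 of the 6 other clusterings the Aldh1a2 domain was again the highest in both libraries. The cluster of Mecom and Postn held Sema3a at 9.45 and 10.4 CPM, and a cluster of the Msx domain led by Vegfd held it at 163 and 146 CPM. Sema3c (chromosome 5: 17574281-17730268, plus strand) was highest in the Scx domain, at 62.8 and 51.7 CPM, followed by the Ogn domain at 35.1 and 33.3 CPM. In the Dlx2 domain 4 and 2 UMIs of Sema3c were counted, 1.55 and 1.19 CPM. The Scx domain thus had the highest levels of both Robo1 and Sema3c, with a log2 difference for Sema3c of 2.23 (2.03 to 2.43) and 2.13 (1.92 to 2.34).

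Nrp1 (chromosome 8: 128358604-128503363, plus strand) was concentrated in the Sim1 domain. It was at 96.6 and 119 CPM there and at 5.02 to 36.0 CPM in every other domain of either library, a log2 difference of 2.37 (2.25 to 2.49) and 2.54 (2.45 to 2.64). Within the Sim1 domain, the cluster led by Vax2os, Gsc and Irx1 had 155 and 186 CPM, and the other 2 clusters 64.3 to 103 CPM. Nrp2 (chromosome 1: 62703285-62818695, plus strand) had the opposite bias: 20.9 and 14.8 CPM in the Sim1 domain and 111 CPM in both libraries in the Aldh1a2 domain, with the Scx domain lowest at 65 and 55 UMIs (15.01 and 11.9 CPM). Over all clusterings its Aldh1a2 domain level ranged from 75.7 to 147 CPM in male and 52.1 to 123 in female cells, and at a clustering resolution of 2 the Dlx2 domain was the highest. A cluster of the Msx domain led by Mab21l2 (100.2 and 78.8 CPM) and the Mecom and Postn cluster (97 and 96.3 CPM) were also high in Nrp2, so its level was not particular to the Aldh1a2 domain. Plxna2 (chromosome 1: 194618218-194816869, plus strand) was highest in the Aldh1a2 domain, at 97.3 and 117 CPM, from 182 and 184 UMIs. The Foxd1 domain followed at 27.1 CPM in both libraries, and the Rprm domain was lowest, with 10 and 4 UMIs (3.08 and 1.04 CPM). The log2 difference for Plxna2 in the Aldh1a2 domain was 2.94 (2.70 to 3.17) and 3.38 (3.14 to 3.61), though over all clusterings its level there ranged from 46.5 to 97.3 CPM in the male and 47.7 to 117 in the female library.

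Ntn1 (chromosome 11: 68209364-68400823, minus strand) had its highest level in the Sim1 domain, at 4.6 and 3.93 CPM from 53 and 62 UMIs, and 0.90 and 0.85 CPM in the Msx domain. In the Foxd1 domain it was at 4.02 and 2.53 CPM, and the Poisson intervals of the Foxd1 and Sim1 domains overlap in both libraries. In 2 of the 6 other clusterings the Sim1 domain was again its highest in both libraries.

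The promoters of a pair of members, Robo1 and Nrp1, are shown, each with 1 highest domain in every clustering where domains were compared. The names of those domains include genes for basic helix-loop-helix factors, Scx and Sim1, a class of protein that binds the E-box, CANNTG, or related motifs. The pair is a selection. Sema3c, highest in the Scx domain in every clustering as well, and Plxna2, highest in the domain of Aldh1a2 and Tcf21 in every clustering, are not shown. The sequences are the 250 bases before the RefSeq start (GRCm38.p6), 5′ to 3′ on the gene's strand, with each E-box in capitals. The motif reads alike on both strands.
Robo1, chr16:72662899-72663148, plus strand: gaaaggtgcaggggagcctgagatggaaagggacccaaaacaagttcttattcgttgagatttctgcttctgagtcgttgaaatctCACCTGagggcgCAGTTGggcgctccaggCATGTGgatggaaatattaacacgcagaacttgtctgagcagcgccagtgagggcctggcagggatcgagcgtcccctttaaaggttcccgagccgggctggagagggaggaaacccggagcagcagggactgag
Nrp1, chr8:128358823-128359072, plus strand: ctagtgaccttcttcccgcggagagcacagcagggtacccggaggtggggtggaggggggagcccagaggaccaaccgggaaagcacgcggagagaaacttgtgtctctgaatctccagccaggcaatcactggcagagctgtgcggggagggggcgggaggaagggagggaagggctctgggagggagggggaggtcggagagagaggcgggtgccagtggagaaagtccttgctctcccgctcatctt
The Robo1 window holds 3 E-boxes and the Nrp1 window 0. Of the 9 members in the promoter table, 4 hold at least 1 (Robo1 with 3, Sema3c with 2, Sema3a and Robo2 with 1 each), against 66.2% of 32841 promoters of the same length. The form CAGCTG was found in 0 of the 9 and in 13.0% of all. A match describes letters and is not a binding site, and no match says only that these letters are absent from the window. Both windows lie in introns of GENCODE transcripts of the same gene that start further upstream, and neither overlaps an annotated exon.

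Read by domain, the members fell into a few combinations. In the Aldh1a2 domain 4 members were 2-fold higher (Slit2, Sema3a, Nrp2 and Plxna2) and 0 lower, where 2.94% of all genes were higher. The Ogn domain had 3 higher (Slit2, Sema3a and Sema3c, background 1.83%) and Nrp1 lower (5.16%). These calls rest on the values and not on their intervals. In the male Ogn domain the log2 difference was 1.00 (0.89 to 1.11) for Sema3a and -1.01 (-1.34 to -0.70) for Nrp1. The Scx domain had Robo1 and Sema3c higher (2.04%) and Nrp1, Nrp2 and Plxna2 lower (5.17%). Of the other plexins that can pair with neuropilins, Plxna4 was 2-fold lower there too (1.62 and 2.59 CPM), and Plxna1 (13.4 and 12.3), Plxna3 (11.8 and 10.3) and Plxnd1 (3.46 and 2.59) were not. The Sim1 domain had Nrp1 and Ntn1 higher (2.88%) and Nrp2 lower (3.74%). In the Dlx2 domain 4 members were lower (Slit2, Slit3, Sema3c and Nrp1, background 7.88%), and in the Rprm domain 4 were (Sema3a, Sema3c, Nrp2 and Plxna2, background 6.24%). The Foxd1 domain had Plxna2 higher (1.42%) and Slit2 lower (2.97%), and the Msx domain Sema3c and Ntn1 lower (3.49%).

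Cues and receptors of a family were then set side by side over the domains, as Pearson r of log2(CPM + 5), a description over 8 points that share libraries and cells. Of 10 pairs, 5 had r above 0 in both libraries and 5 below. Slit3 and Robo2 were the most opposed, with r of -0.83 and -0.68, and -0.72 and -0.61 over 19 single clusters. Slit2 and Robo2 had -0.42 and -0.54, while Slit2 and Robo1 had 0.17 and 0.14. For Sema3a and Plxna2 r was 0.55 and 0.64 over domains but 0.08 and 0.25 over clusters. Sema3a and Nrp2 had 0.59 and 0.65 over domains but -0.10 and -0.10 over clusters, which include the Mecom cluster, high in Nrp2 and low in Sema3a. Sema3a and Nrp1, the neuropilin named above as binding Sema3a, had -0.40 and -0.18 over domains and -0.21 and -0.12 over clusters. Between cues, Slit2 and Sema3c had 0.82 and 0.80 over domains.

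**Figure D3:**
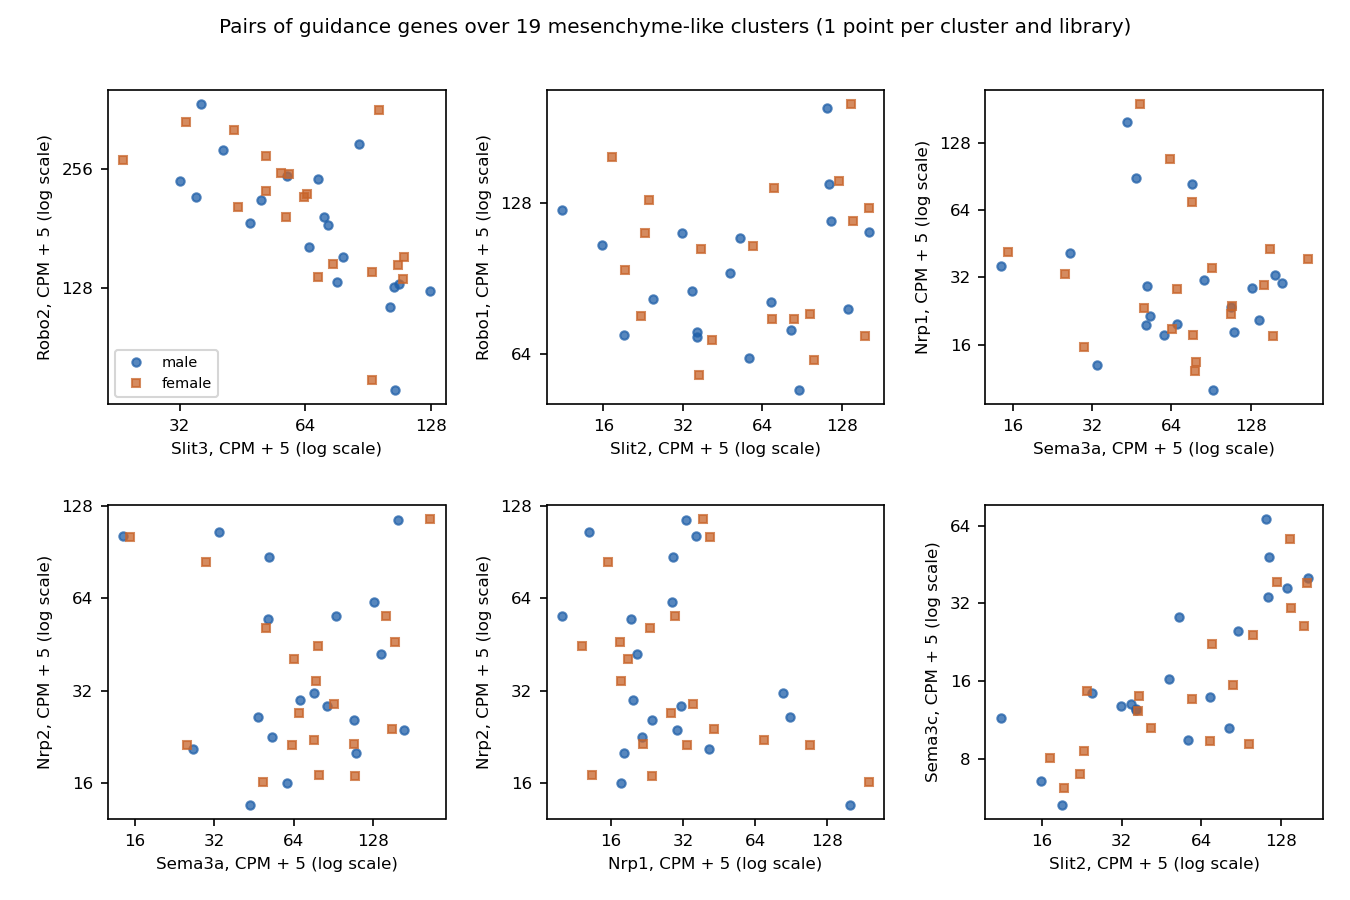
Levels of 6 pairs of members over 19 mesenchyme-like clusters, as CPM + 5 on log axes, with 1 point per cluster and library (circles male, squares female). Slit3 and Robo2 run in opposite directions (r of -0.72 and -0.61), Slit2 and Sema3c run together, and the cluster with the highest Nrp1 (155 and 186 CPM) has the lowest Nrp2 among clusters (8.6 and 11.1 CPM).

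At the level of single cells, after thinning to 2000 UMIs, a UMI of Slit2 or Slit3 was found in 20.8% of male and 21.4% of female mesenchyme-like cells, and of Robo1 or Robo2 in 39.4% and 41.4%. Both were found in 7.60% and 8.10% of cells, and unthinned in 27.5% and 30.1%. The Robo share was 36.6% and 37.9% among cells with a Slit UMI and 40.2% and 42.3% among the others. Within single domains, which differ in both families, it was lower in cells with a Slit UMI in both libraries in 2 of 8 domains, higher in both in 1 (the Ogn domain, 43.0% against 40.4% and 50.4% against 47.9%), and of mixed direction in the rest. The background for these shares differed by class. In endothelium-like cells a Slit UMI was found in 2 of 134 and 1 of 80 cells after thinning. In erythroid-like (red blood) cells a Slit UMI was found in 10.4% and 8.37%, and a Robo UMI in 16.8% and 17.2%. Mesenchyme markers were at 39.1% and 43.3% of the mesenchyme level in erythroid-like cells, against 2.84% and 3.91% in endothelium-like cells. Sema3a or Sema3c was found in 14.8% and 15.5% of mesenchyme-like cells, Nrp1, Nrp2 or Plxna2 in 14.8% and 14.0%, and both in 2.15% and 2.20% (8.82% and 9.48% unthinned). In the Aldh1a2 domain both were found in 10.9% and 15.9% of cells, and in the Scx domain in 0.801% and 0.717%.

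Male and female libraries were compared over all mesenchyme-like cells and then within domains. Over all mesenchyme-like cells 1 of 10 members differed by at least 0.32 on the log2 scale, the limit set for a difference between libraries, against 8.01% of 13084 genes counted. That gene was Nrp1, lower in the male library, with a log2 male over female of -0.33 (-0.40 to -0.25). It was short of that limit in 6 of 8 other settings: -0.31 with 4000 UMIs per cell or a median-ratio size factor, -0.29 with doublets kept, -0.23 with cells thinned, -0.19 with domains weighted alike, and 0.0078 in the cells with at most 5% mitochondrial UMIs. The Sim1 domain, where Nrp1 is highest, made up 13.0% of male and 15.6% of female mesenchyme-like cells. Intervals were above 0 for Nrp2 (0.26, 0.19 to 0.34), Sema3c (0.22, 0.10 to 0.33) and Plxna2 (0.16, 0.04 to 0.28), and below 0 for Slit2 (-0.21), Robo1 (-0.15), Robo2 (-0.14), Sema3a (-0.10) and Nrp1. For Slit3 (0.03, -0.02 to 0.09) and Ntn1 (0.28, -0.01 to 0.58) they included 0. Within single domains, 14 of 66 pairs of a member and a domain with at least 100 UMIs passed the limit with an interval that excludes 0. Of the 14 pairs, 7 were higher in the male library and 7 in the female, in 9 of the 10 members. The share of all genes that pass within single domains was not taken, so these counts have no background. The Sim1 domain held 5 of the 14 pairs: Robo2 (-0.46), Robo1 (-0.35) and Plxna2 (-0.42) were lower in male cells, and Sema3c (0.72) and Nrp2 (0.50) higher. Nrp2 (0.50), Nrp1 (0.50) and Ntn1 (0.67) were higher in the male Foxd1 domain, and Sema3a (-0.42) was lower in the male Aldh1a2 domain. The median over the members in all mesenchyme-like cells was -0.03, against -0.02 over all genes counted. With 1 library a sex, no test between sexes is possible, and sex cannot be told apart from library, litter or dissection.

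**Figure D4:**
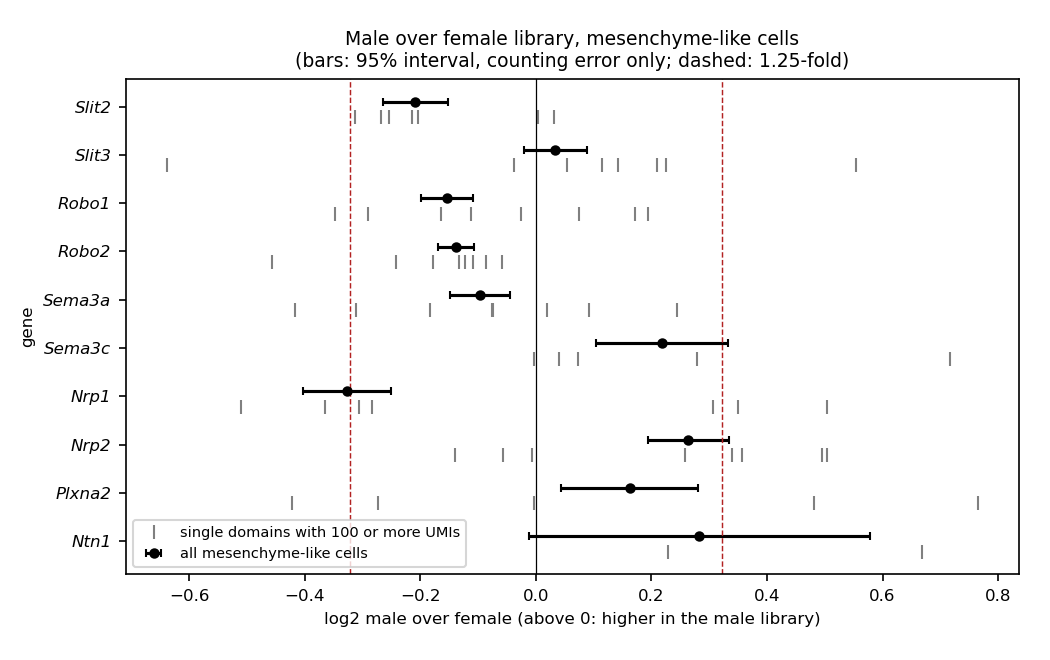
Male over female level of each gene on the log2 scale in all mesenchyme-like cells (points with 95% intervals for counting error) and in single domains with at least 100 UMIs (grey ticks); dashed lines mark 0.32 either way. Among the points only Nrp1 (-0.33) lies beyond a dashed line, and ticks lie on both sides of 0 for 8 genes, all but Robo2 and Ntn1.

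Among the other guidance genes, 50 listed genes were in the tables and 39 had at least 100 UMIs in mesenchyme-like cells. Of these, 4 passed the limit on the male side (background 5.17%) and 1 on the female side (2.84%). The interval excluded 0 for Robo3, a divergent Robo (0.83, 1.96 against 1.10 CPM), Plxnc1 (0.33) and Ntn4, a netrin of basement membranes (-0.45). A domain at 2-fold in both libraries was found for 17 of 34 genes (50%, background 20%), with 11 higher (background 12.5%) and 17 lower (17%) in at least 1. These lists too were chosen with earlier results of these data known. The netrin receptors Unc5b and Unc5c were high in the Dlx2 and Msx domains. Ntn1 was at 0.77 and 1.78 CPM in the Dlx2 domain, from 2 and 3 UMIs, and at 0.90 and 0.85 CPM in the Msx domain, from 18 UMIs in each library. The female Poisson interval of Ntn1 in the Dlx2 domain (0.37 to 5.21 CPM) includes its Sim1 domain level of 3.93 CPM. Unc5b was at 169 and 166 CPM in the Dlx2 domain and 98.4 and 94.9 in the Msx domain, against 7.21 and 9.07 in the Sim1 domain. Unc5c was at 158 and 168 CPM in the Dlx2 domain and 19.1 and 16.0 in the Sim1 domain. In the Aldh1a2 domain Plxna4 (28.3 and 39.6 CPM), Ntng1 (26.7 and 26.2), Sema4f (15.5 and 15.3) and Sema6d (16.0 and 12.8) were 2-fold higher, as Plxna2 was. Sema3d (18.5 and 16.8 CPM) and Plxnc1 (10.9 and 9.05) were 2-fold higher in the Scx domain, Sema5a (114 and 110.1) in the Sim1 domain, and Srgap1, which acts downstream of Robo, in the Foxd1 domain (80.5 and 87.8), where Robo2 was highest. Sema5b was higher in the Foxd1 domain as well (4.66 and 4.15 CPM), Sema4d was lower in the Sim1 domain (2.35 and 2.41), and Rgma was lower in the Dlx2 domain (3.09 and 4.76). Unc5d, Draxin, Vegfc and Pgf each had a domain 2-fold lower and none higher.

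In endothelium-like cells, beside Nrp1, the plexin Plxnd1 was at 576 and 573 CPM, Kdr, the main receptor of vascular endothelial growth factor, at 502 and 609, Sema6d at 171 and 175, and Unc5b at 75.4 and 108. Glia-like cells, high in Nrp1 and Sema3c, held Plxna4 at 108 and 87.0 CPM and Sema4c at 64.2 and 63.9. Epithelium-like cells, high in Sema3c and Plxna2, held Sema3d at 57.3 and 48.3 CPM and Plxnb2 at 56.8 and 54.2. In mesenchyme-like cells the genes with the most UMIs in their lists were Unc5c (64.9 and 65.3 CPM), Sema5a (52.9 and 53.8), Plxnb2 (47.5 and 47.1), Srgap1 (44.3 and 49.6), Vegfa (35.3 and 31.1) and Sema3f (20.2 and 20.8).

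Genes with the most similar pattern over the 8 domains were found by the lower of the male and female r, among 2142 genes with at least a 2-fold range. Plxna2 was most like Adamts5 (0.99 and 0.97), Thbd and Tsc22d1, and Sema3c was most like Vwa5a (0.97 and 0.95), Khdrbs2 and Plk2. Nrp1 was most like Csrnp3 (0.95 and 0.96), Lsamp and Doc2b, and Nrp2 most like Arhgap29 (0.96 and 0.94), Tgfbi and Hibadh. For Sema3a they were Ntng1 (0.94 and 0.93), Hif3a and Prr16, and for Robo1 Tspan7 (0.92 and 0.93), Rgs2 and Cadm4. For Robo2 they were Tln2 (0.91 and 0.95), Ankrd6 and Tmem159, and for Slit3 Cyth3 (0.93 and 0.91), Pinx1 and Nectin2. Slit2 was most like 1700018A04Rik (0.91 and 0.94), Gm44257 and Fyn, and Ntn1 most like Srd5a2 (0.82 and 0.83), Igfbp3 and Uchl1. With 8 points, values this high describe these domains only.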

How the data were processed

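Droplet 3′ libraries of the genital tubercle were deposited as whole-number UMI counts per gene and barcode, made by the authors with Cell Ranger 3.1 on mm10, per the submitters' processing notes. The annotation version is not given in the sources used here. All barcodes were deposited, so cells were called here by the limits given above. Scrublet marked 0% of cells as doublets, so the highest-scoring 13.8% of male and 15.0% of female cells were removed, at 0.8% per 1000 cells. Doublets of similar cells may remain. Cells were clustered in scanpy 1.11.5 (30 components, 15 neighbours, Leiden resolution 1) without guidance, cell cycle, haemoglobin and mitochondrial genes. Xist, Tsix and Y chromosome genes were left out too, but other X-linked genes were not left out as such. Clusters were named from marker lists. Counts were summed per library and group, and ratios have exact conditional 95% intervals. On simulated Poisson counts for 13084 genes these held the true value for 95.2%. The simulation had no variation between cells, embryos or libraries, so it checks the formula only and not the intervals on real data. Coordinates are from GENCODE M21. Strand use in counting is not given. In mesenchyme-like cells 4930518C09Rik, antisense to Slit2, had 7 and 12 UMIs, and Gm29083, antisense to Nrp2, 0 and 1. The members and lists were chosen with earlier results of these data known. Named genes were all 10 members, listed genes past 0.32 (log2) between libraries with an interval excluding 0 or with a 2-fold domain, the gene with the most UMIs per list, and 3 most similar genes per member. Alternatives covered cell limits, doublets, scaling, thinning, clustering, folds and free RNA.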

Additional observations from a re-analysis of the deposited data

Results flagged for a closer look

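Nrp1, Slit3 and Plxna2 had male over female differences of opposite direction in single mesenchyme domains, each with a 95% counting interval that excludes 0. They were picked from 66 pairs of a member and a domain, with no background share, and the differences between domains were not tested. Nrp1 was higher in the male library in the Foxd1 domain (log2 0.50, 0.23 to 0.77, from 269 and 201 UMIs). It was lower in the Scx domain (-0.51, -1.02 to -0.01, from 57 and 87 UMIs). Slit3 was higher in the male library in the Rprm domain (0.23, 0.02 to 0.43, 398 and 404 UMIs), short of the limit of 0.32. It was lower in the Aldh1a2 domain (-0.64, -1.17 to -0.12, 56 and 73 UMIs). Plxna2 was higher in the male library in the Ogn domain (0.76, 0.19 to 1.35, 67 and 43 UMIs), which 3 of the 6 other clusterings lack. It was lower in the Sim1 domain (-0.42, -0.79 to -0.06, 97 and 178 UMIs). Within the Foxd1 domain, the cluster led by Nefm and Nefl had Nrp1 at 24.2 CPM (male) and 13.8 CPM (female), a log2 difference of 0.81, and Nrp2 at 82.4 and 35.7 CPM, a difference of 1.21.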

How the results depend on the processing

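The number of members past the limit of 0.32 (log2) between the libraries was 1 and became 2 with a limit of 1000 UMIs per cell, 3 with at most 5% mitochondrial UMIs, and 0 with doublets kept, with a median-ratio size factor, with cells thinned and with domains weighted alike. The limit of 5% left 1213 male and 1101 female cells, and there Nrp1 turned to 0.0078. Members with a domain at 2-fold numbered 7 to 10 over the alternatives in which domains were compared, from a main count of 9. The backgrounds were 16.8% to 36.3%. The count was 7 with another random seed of the clustering, a setting chosen after seeing the data, and 10 at 1.5-fold. Among the classes compared, the one with the highest level kept its count of 9 members under 3 alternatives. Glia-like, immune-like and muscle-like cells were left out of that comparison. Yet Sema3c (240.1 and 208 CPM) and Slit3 (149 and 78.1 CPM) were highest in glia-like cells. In the male library Nrp1 was too, at 314 CPM against 236 in endothelium-like cells. The count therefore does not cover the highest class of these genes among all classes. Pairs with r above 0 numbered 4 or 5. No paired analysis was possible because each sex has 1 library. Counting depth limits Ntn1 and the small classes most.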
